A study of Homo sapiens with 19 samples.

Results

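The genes described here are 10 genes for moving amino acids into cells and for the first step of branched-chain amino acid breakdown, out of 62700 genes in the count tables. They are SLC6A14, SLC3A2, SLC7A5, SLC7A1, SLC1A4, SLC1A5, SLC38A1, SLC38A2, BCAT1 and BCAT2, selected on their function and with their CPM (each gene's count scaled to a common library total) in all 19 libraries already known. Smart-Seq2 libraries were made from A549, an established line grown from a human lung adenocarcinoma, before and after nanostraw electroporation (NEE), which opens living cells through hollow nanoscale tubes with electric pulses so that RNA can be drawn out. RNA drawn by NEE from monolayers (flat cultures) gave 3 libraries, which are technical replicates. The other libraries came from whole lysates of spheroids (small balls of cells) and of monolayers at 4 times (before NEE, directly after NEE, and 2 h and 24 h past it), with 2 biological replicates in each of the 8 groups. All cells were A549, and no group lysed at a later time was left without NEE. Because the members were chosen with these levels in view, the test results below are read from fits over all genes as a description of the levels and are not independent evidence for the choice.

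Cells exchange amino acids with their surroundings through families of solute carriers. SLC7A5 (LAT1) carries large neutral amino acids, leucine among them, and reaches the membrane only in a heterodimer with the glycoprotein SLC3A2 (CD98 heavy chain). SLC7A1 (CAT1) carries the cationic amino acids arginine and lysine. SLC1A4 (ASCT1) and SLC1A5 (ASCT2) exchange small neutral amino acids, glutamine being a main substrate of SLC1A5, and SLC38A1 and SLC38A2 (SNAT1 and SNAT2) take up glutamine and other small neutral amino acids with sodium. SLC6A14 (ATB0,+) takes up neutral and cationic amino acids with sodium and chloride and is known from the apical side of lung and gut epithelium. BCAT1 in the cytosol and BCAT2 in mitochondria are the transaminases that take the amino group from leucine, isoleucine and valine. In cells short of amino acids the transcription factor ATF4 is known to raise several of these genes.

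The lysate libraries held 16031034 to 24571083 counts and the NEE-sampled libraries 13626934 to 18512985, so that 3 counts, the limit that a count of 0 allows, corresponded to 0.112 to 0.267 TMM-scaled CPM in a library. Reads are PCR copies without molecular identifiers, so floors and intervals cover counting error only. Replicate 1 of the monolayers before NEE stood apart from the other lysates. Its summed level over 12 markers of natural killer and T cells was 626 CPM, against 17 to 59.3 CPM in the other 15 lysates, with all 12 markers above each other lysate. Its 5 epithelial markers (KRT8, KRT18, KRT19, EPCAM and CDH1) summed to 4676 CPM, against 1.06e+04 to 2.37e+04 CPM in the other lysates. Its 6 fibroblast markers summed to 30.6 CPM, against 3.54 to 10.4 CPM in the other lysates, with 2 of the 6 above each other lysate and 1 at 0. Its 4 endothelial markers summed to 15.7 CPM, against 0.702 to 4.31 CPM, with only 1 of the 4 above each other lysate and 3 at 0. In the same library SLC7A1, SLC1A4, SLC38A1 and BCAT1 were above each of the other 7 monolayer libraries and SLC3A2 and BCAT2 were below them. In bulk RNA, fewer cells of a type and less RNA per cell cannot be told apart. The part of this library's makeup in the values below was not tested, and values without it are given where it moves a result.

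The levels of the 10 genes spanned a wide range on the scale of TMM-scaled CPM per kilobase of exon. The length is that of all annotated exons of a gene merged over its transcripts, 4.55 kb for BCAT2 and 11.8 kb for BCAT1. The transcripts expressed here can be shorter, so levels and shares compared between genes are approximate. SLC3A2 was the highest in both cultures, at 232 ± 46.6 CPM per kb in spheroids and 304 ± 30.1 in monolayers (mean ± SD, n = 8 each). SLC1A5 followed, at 115 ± 22.1 CPM per kb in spheroids and 130 ± 28 in monolayers. SLC7A5 stood at 81.3 ± 30.1 CPM per kb in spheroids and 101 ± 21.9 in monolayers, and SLC38A2 at 70.7 ± 21.1 and 74.5 ± 31.8 in the same order of cultures. SLC38A1 and BCAT2 were lower and close together in spheroids, at 29.5 ± 4.63 and 31 ± 3.53 CPM per kb. In monolayers SLC38A1 was at 41.4 ± 13.5 and BCAT2 at 20.8 ± 3.11 CPM per kb. SLC7A1, SLC1A4 and BCAT1 reached at most 10.2, 3.86 and 16.4 CPM per kb in any lysate. The values of SLC7A1 and BCAT1 came from the library that stood apart, and without it the highest were 9.52 and 9.72. SLC6A14 was the lowest in monolayers, at 0.0202 ± 0.0509 CPM per kb. In spheroids it was at 1.1 ± 0.585 CPM per kb, close to BCAT1. There the 2 genes made up 0.198 ± 0.119% and 0.194 ± 0.108% of the summed level per kilobase of the 10 genes. SLC3A2 alone made up 40.7 ± 3.38% of the summed level per kilobase of the 10 genes in spheroids and 44.5 ± 5.36% in monolayers (SD, n = 8 each).

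**Figure D1:**
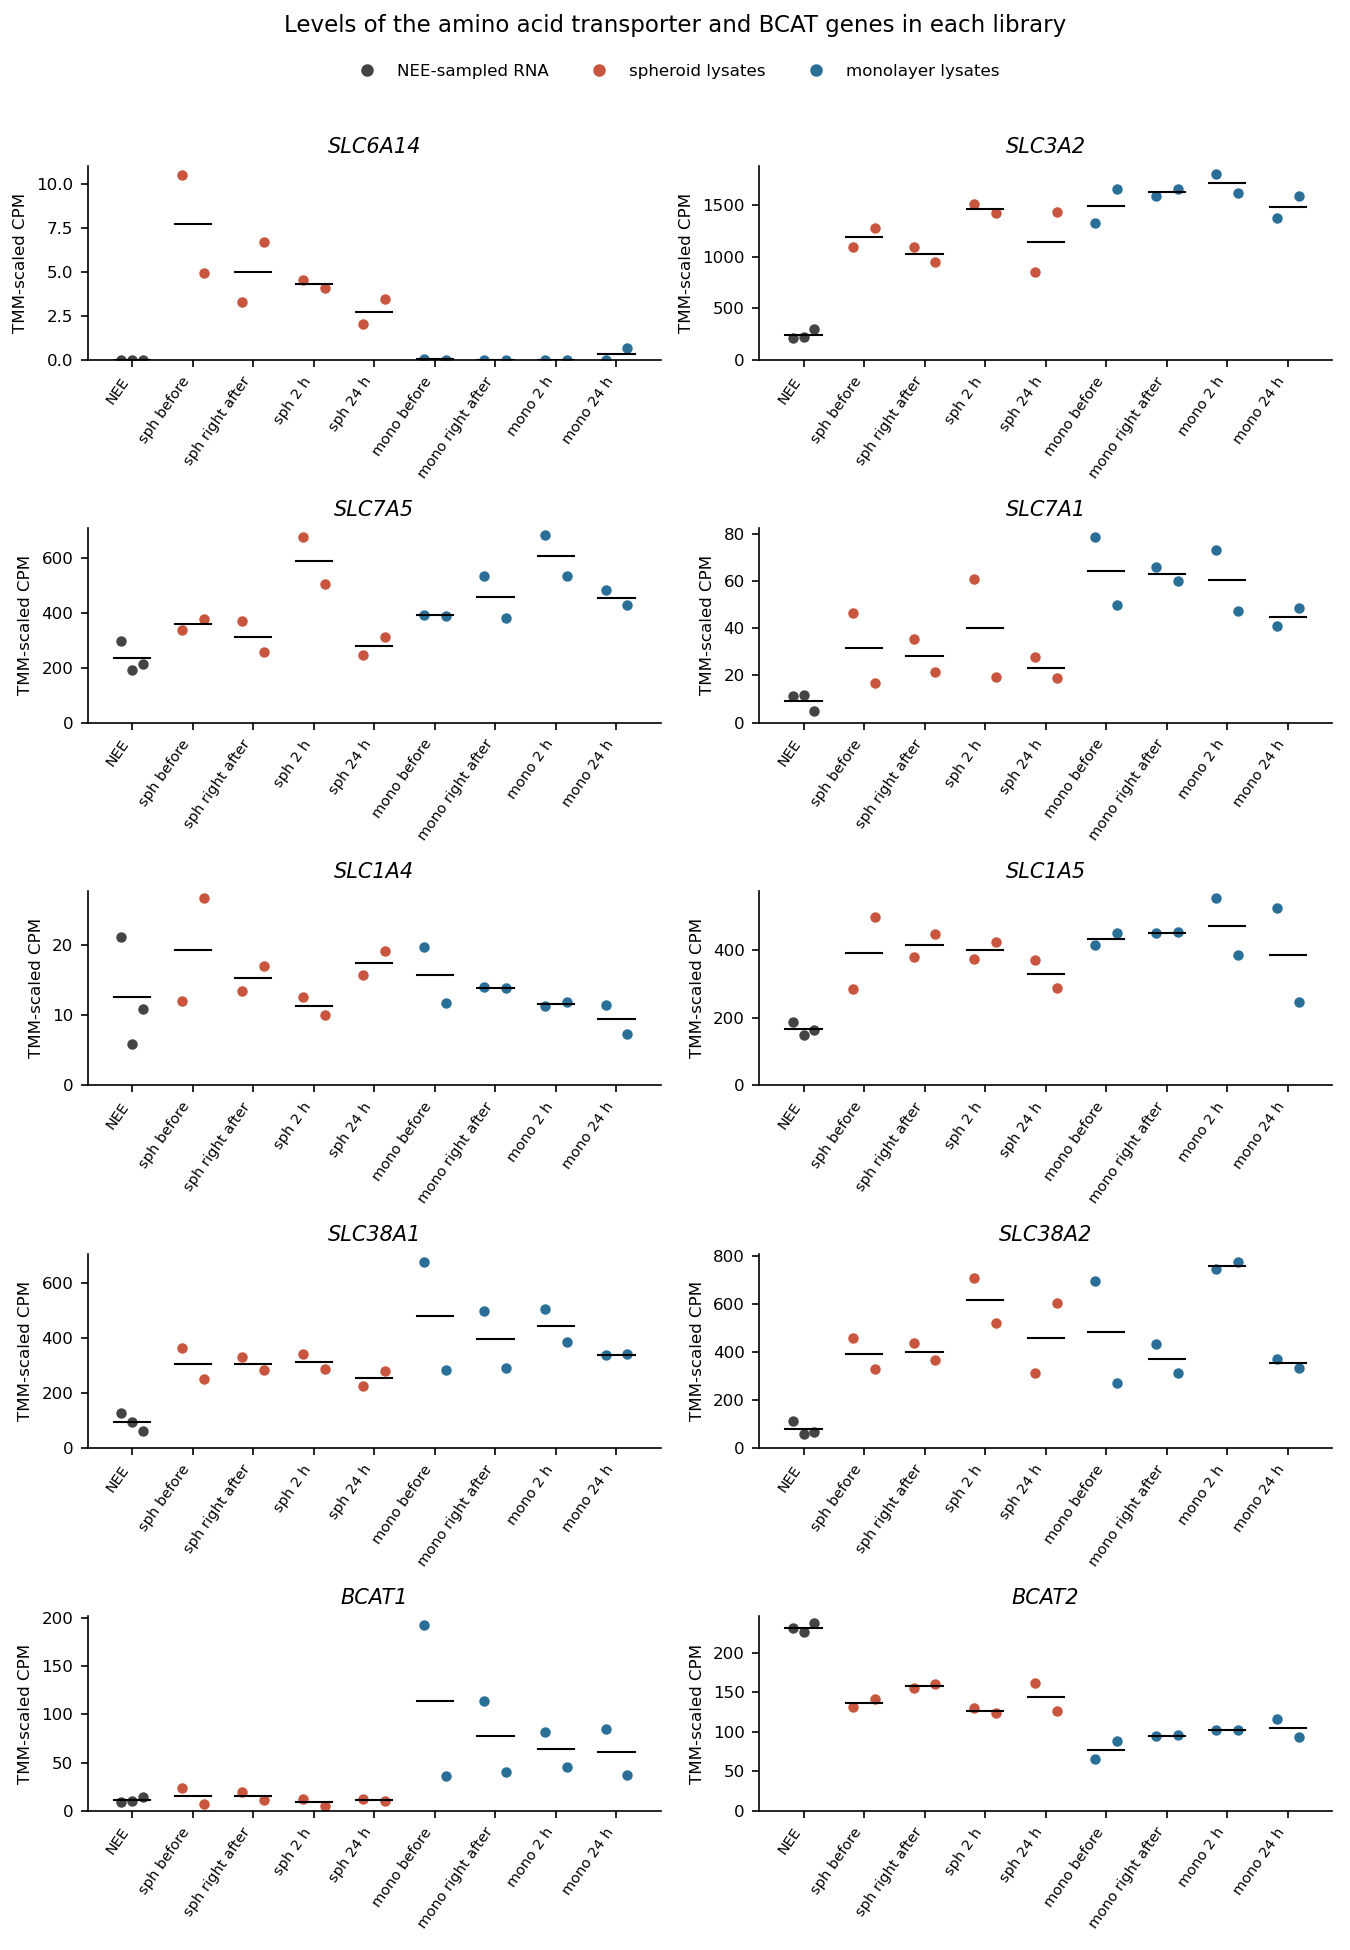
TMM-scaled CPM of each gene (vertical axis, from 0) in every library, grouped along the horizontal axis as NEE-sampled RNA (3 technical replicates), spheroid lysates (sph) and monolayer lysates (mono) at each time, with points for libraries and bars for group means. SLC6A14 is seen in all 8 spheroid libraries, BCAT1 is low in spheroids and in NEE-sampled RNA, BCAT2 is highest in NEE-sampled RNA, and SLC7A5 is highest at 2 h in both cultures.

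The promoters of 3 of the genes, SLC6A14, BCAT1 and SLC7A5, are shown for reference, as the 250 bases upstream of a RefSeq start site (GRCh38.p14). Capitals mark the motifs TGATGNAA, the core of elements bound by C/EBP and ATF factors, and CACGTG, the E-box, which were searched on both strands. SLC6A14 lies at chrX:116436356-116436605 on the plus strand, BCAT1 at chr12:24949102-24949351 on the minus strand and SLC7A5 at chr16:87869508-87869757 on the minus strand.
SLC6A14: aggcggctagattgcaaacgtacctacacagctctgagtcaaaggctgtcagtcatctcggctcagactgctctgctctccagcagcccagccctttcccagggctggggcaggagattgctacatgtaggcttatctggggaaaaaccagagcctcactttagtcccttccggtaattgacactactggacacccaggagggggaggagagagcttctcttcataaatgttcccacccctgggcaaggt
BCAT1: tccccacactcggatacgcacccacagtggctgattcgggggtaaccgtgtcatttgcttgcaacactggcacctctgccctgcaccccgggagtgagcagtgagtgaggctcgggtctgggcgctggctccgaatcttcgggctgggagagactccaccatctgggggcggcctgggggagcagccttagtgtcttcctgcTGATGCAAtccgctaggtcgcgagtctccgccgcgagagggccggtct
SLC7A5: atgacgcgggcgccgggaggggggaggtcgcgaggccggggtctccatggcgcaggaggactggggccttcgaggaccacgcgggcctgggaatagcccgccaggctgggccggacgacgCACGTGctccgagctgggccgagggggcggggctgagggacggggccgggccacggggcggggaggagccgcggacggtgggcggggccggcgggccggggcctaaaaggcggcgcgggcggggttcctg
The SLC6A14 stretch holds neither motif, the BCAT1 stretch holds TGATGCAA 48 bases before the start site, and the SLC7A5 stretch holds CACGTG 130 bases before it. RefSeq lists 19 windows of 300 bases (250 before and 50 after a start) for 9 of the 10 genes, since several genes have more than 1 start site, and none for BCAT2. TGATGNAA was in 6 of these 19 windows, from 6 genes, and CACGTG in 3 windows, from 3 genes. The BCAT1 stretch shown is from the first listed of its windows, which also holds CACGTG 15 bases past the start site, outside the stretch. The other listed windows of BCAT1 hold neither motif. Over the first listed window of each of 27305 genes, 3.67% held TGATGNAA and 7.43% held CACGTG, and in the first window of each of the 9 genes these stood at 4 and 2 of 9. A match is a run of letters and does not show that a factor binds there.

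The comparison of spheroids with monolayers asked how the growth form goes with the levels. Over the 4 times, 5 of the 10 genes passed the test: SLC6A14 and BCAT2 were higher in spheroids, and BCAT1, SLC7A1 and SLC3A2 were lower (edgeR quasi-likelihood test, Benjamini-Hochberg adjusted p under 0.05 over 17822 genes). Of all genes tested, 19.9% were called in this comparison, 10% higher and 9.84% lower. SLC6A14 entered the fit through its spheroid counts alone, so its place among the 5 was fixed by the filter on low counts and adds no support. The median log2 fold change was −0.26 over the 10 genes and −0.02 over all genes tested.

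SLC6A14 (ENSG00000268104, chromosome X, 116436622 to 116461458 on GRCh38, plus strand) was seen in every spheroid library and at or near 0 counts in monolayers. In spheroids it was at 10.6 and 4.96 CPM before NEE, 3.32 and 6.72 CPM right after, 4.55 and 4.08 CPM at 2 h, and 2.04 and 3.44 CPM at 24 h. In monolayers 6 of the 8 libraries held no count, and the other two held 2 counts (0.0744 CPM, before NEE) and 14 counts (0.657 CPM, at 24 h). Every spheroid library was above every monolayer library. The 8 spheroid libraries held 716 counts in all and the 8 monolayer libraries 16, a depth-scaled ratio of 52.2 (95% exact interval of 31.9 to 91.9, counting error only). Without the 24 h monolayer library that held 14 of the 16, an alternative chosen after seeing the data, the counts were 716 in spheroids and 2 in monolayers, a ratio of 366 (101 to 3.03e+03). Before NEE the counts were 273 in spheroids and 2 in monolayers, a ratio of 183 (50.2 to 1.52e+03). Both monolayer counts came from the library that stood apart, and against the other one alone, at 0, spheroids were at least 52.6-fold higher (3 counts as the floor, also chosen after seeing the data). At the next times the monolayers were at 0, and spheroids were at least 62.8-fold higher right after NEE and at least 59-fold higher at 2 h, with 3 counts over the monolayer group as the floor. At 24 h the counts were 105 in spheroids and 14 in monolayers, a ratio of 8.67 (4.94 to 16.4), and all 14 counts came from replicate 2.

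BCAT1 (ENSG00000060982, chromosome 12, 24810022 to 24949459, minus strand) was low in spheroids. Its levels there were 23.3 and 6.76 CPM before NEE, 19.6 and 10.8 CPM right after, 12.4 and 4.81 CPM at 2 h, and 11.9 and 9.93 CPM at 24 h. Monolayers held 192.5 and 35.6 CPM before NEE, 114 and 40.3 CPM right after, 82.1 and 45.3 CPM at 2 h, and 85 and 37.6 CPM at 24 h. The 2 cultures did not overlap, the highest spheroid library being at 23.3 CPM and the lowest monolayer library at 35.6 CPM. The log2 fold change over the 4 times was −2.65 ± 0.43 (SE, edgeR adjusted p = 0.00128), and it ran from −2.93 to −2.23 over 23 alternatives, each of which kept the call. Replicate 1 was above replicate 2 in all 8 groups, by 1.2-fold to 5.4-fold with a median of 2.42-fold, so the replicates of this gene differ in level by more than those of its partner BCAT2 (0.743-fold to 1.29-fold). Within each replicate number spheroids stayed lower at all 4 times, at 0.121 to 0.171 of the monolayer level in replicate 1 and 0.106 to 0.268 in replicate 2.

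BCAT2 (ENSG00000105552, chromosome 19, 48795062 to 48811029, minus strand) ran the other way. Spheroids had 131 and 141 CPM before NEE, 155 and 161 CPM right after, 130 and 123 CPM at 2 h, and 162 and 126 CPM at 24 h. Monolayers had 66 and 88.8 CPM before NEE, 94.7 and 95.5 CPM right after, 101.7 and 102.5 CPM at 2 h, and 116 and 93.8 CPM at 24 h. No spheroid library was as low as any monolayer library, and BCAT2 was 1.2-fold to 1.99-fold higher in spheroids in all 8 pairs of the same time and replicate number. Its log2 fold change over the 4 times was 0.58 ± 0.11 (SE, edgeR adjusted p = 0.00203), with a range of 0.54 to 0.64 over 23 alternatives that all kept the call. As a ratio of counts within a library, BCAT1 stood at 0.0391 to 0.178 of BCAT2 in spheroids and at 0.401 to 2.92 in monolayers. The highest ratio, 2.92, belonged to replicate 1 of the monolayers before NEE, and the next highest was 1.21.

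**Figure D2:**
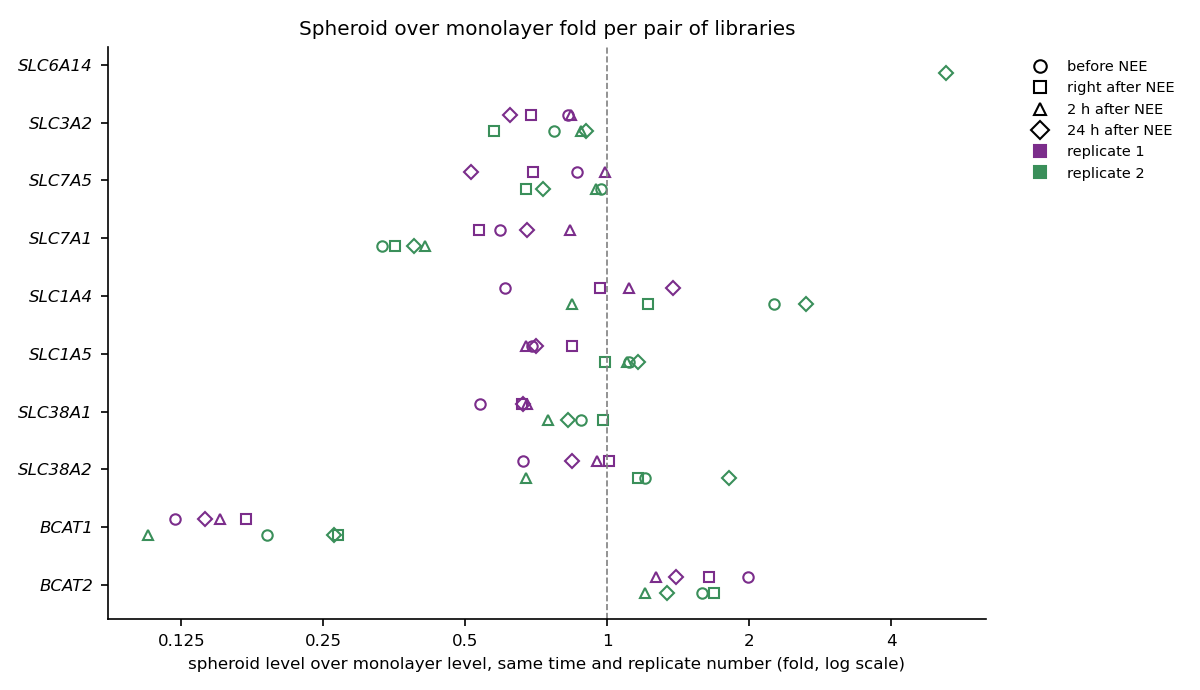
Fold of the spheroid level over the monolayer level for each pair of libraries of the same time (symbol) and replicate number (colour), on a log axis with a dashed line at 1. Pairs where a library held 3 counts or fewer are not drawn, which leaves 1 pair for SLC6A14. All 8 pairs of BCAT1 lie at 0.268 or below and all 8 of BCAT2 at 1.2 or above, while those of SLC1A4 and SLC38A2 fall on both sides of 1.

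Among the exchangers and cation carriers, SLC7A1 (ENSG00000139514, chromosome 13, 29509410 to 29595688, minus strand) ranged from 16.6 to 61 CPM in spheroids with a median of 24.5 and from 41.1 to 78.7 CPM in monolayers with a median of 55. The ranges overlapped through 2 spheroid libraries of replicate 1, at 46.6 CPM before NEE and 61 CPM at 2 h. Its log2 fold change over the 4 times was −0.92 ± 0.26 (SE, edgeR adjusted p = 0.0253), and all 8 same-number pairs were below 1. The fold of spheroids over monolayers was 0.535 to 0.832 in replicate 1 and 0.333 to 0.411 in replicate 2, without overlap. The call was lost when any of 6 single libraries was left out, among them the monolayer library before NEE that stood apart (adjusted p = 0.0663 by edgeR, and 0.0565 to 0.0678 over the 6).

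SLC3A2 (ENSG00000168003, chromosome 11, 62856102 to 62888875, plus strand) had 854 to 1510 CPM in spheroids with a median of 1187 and 1327 to 1801 CPM in monolayers with a median of 1601. It was lower in spheroids in 8 of 8 pairs, with a log2 fold change of −0.39 ± 0.12 (± SE, with an edgeR adjusted p = 0.03). This call was lost when any of 11 single libraries was left out (edgeR adjusted p = 0.0506 to 0.0962). Its partner SLC7A5 (ENSG00000103257, chromosome 16, 87830023 to 87869488, minus strand) had 248 to 678 CPM in spheroids with a median of 355 and 382 to 685 CPM in monolayers with a median of 455. The log2 fold change of SLC7A5 was −0.35 ± 0.12, with spheroids below monolayers in 8 of 8 pairs, and it missed the threshold (edgeR adjusted p = 0.0639). With the replicate number as a block SLC7A5 passed it (edgeR adjusted p = 0.0425), and so did SLC38A1 (adjusted p = 0.0419, against 0.0746 without the block).

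The remaining uptake carriers did not pass the test between cultures. SLC38A1 (ENSG00000111371, chromosome 12, 46183063 to 46270017, minus strand) had 225 to 363 CPM in spheroids with a median of 286 and 285 to 676 CPM in monolayers with a median of 362. Its log2 fold change was −0.48 ± 0.18, and the highest monolayer value, 676 CPM, was again replicate 1 before NEE. Its neighbour on the same chromosome SLC38A2 (ENSG00000134294, 46358189 to 46372867, minus strand) had 312 to 709 CPM in spheroids and 272 to 774 CPM in monolayers, with log2 fold change −0.02 ± 0.19 (SE; edgeR adjusted p = 0.994, 95% interval −0.40 to 0.36).

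SLC1A5 (ENSG00000105281, chromosome 19, 46774883 to 46788594, minus strand) had 286 to 498 CPM in spheroids and 247 to 554 CPM in monolayers, with a log2 fold change of −0.18 ± 0.16 (± SE, with an edgeR adjusted p = 0.502). Its spheroid levels were below monolayers in 4 of 4 pairs of replicate 1 and above them in 3 of 4 pairs of replicate 2. SLC1A4 (ENSG00000115902, chromosome 2, 64988477 to 65023865, plus strand) had 9.99 to 26.8 CPM in spheroids and 7.33 to 19.8 CPM in monolayers, with a log2 fold change of 0.32 ± 0.21 (± SE, with an edgeR adjusted p = 0.307).

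Before NEE alone, with 2 libraries against 2, SLC6A14 was the single gene of the 10 to pass (edgeR adjusted p = 0.0466), again through its spheroid counts alone, in a comparison that called 1.30% of all genes and 0.701% as higher. Its call was lost when any of the 4 libraries was left out (edgeR adjusted p = 0.0688 to 0.163). BCAT1 averaged 15.1 ± 11.7 CPM in spheroids and 114 ± 111 CPM in monolayers before NEE (SD, n = 2 each). Its log2 fold change of −2.91 ± 0.87 missed the threshold in this fit (edgeR adjusted p = 0.116) and passed it with the replicate number as a block (edgeR adjusted p = 0.00514). Without the monolayer library that stood apart it was −1.23 (edgeR adjusted p = 0.672), and 0 of the 10 genes were called. BCAT2 averaged 136 ± 6.75 CPM in spheroids and 77.4 ± 16.1 CPM in monolayers before NEE (SD, n = 2 each), with log2 fold change 0.83 ± 0.22 (SE; edgeR adjusted p = 0.071), and 0.64 without that library (adjusted p = 0.379). The other 7 genes did not pass either. Their log2 fold changes before NEE (± SE) were −1.01 ± 0.53 for SLC7A1, −0.64 ± 0.36 for SLC38A1, −0.32 ± 0.23 for SLC3A2, −0.28 ± 0.39 for SLC38A2, −0.13 ± 0.33 for SLC1A5, −0.12 ± 0.25 for SLC7A5 and 0.30 ± 0.41 for SLC1A4. Without the library that stood apart SLC38A1 was at 0.13 and SLC38A2 at 0.55, on the other side of 0 and not called. The interaction of culture and time called none of the 10 genes at any of the 3 later times, and 0% of all genes in each (edgeR adjusted p = 1 for each of the 10). At an unadjusted p under 0.05 it held SLC6A14 at 24 h, where monolayer replicate 2 held its 14 counts and 628 of the 17822 genes were at that level, and DESeq2 called none of the 10 in it. Leaving aside SLC6A14, the interaction ran from −0.42 ± 0.35 (SLC7A5) to 0.57 ± 1.15 (BCAT1) right after NEE. It ran from −0.51 ± 0.30 (BCAT2) to 0.44 ± 0.74 (SLC7A1) at 2 h and from −0.59 ± 0.35 (SLC7A5) to 0.65 ± 0.55 (SLC38A2) at 24 h (log2 scale, ± SE).

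Myeloid markers differed in level between the cultures, beside these genes. CD14, LYZ and CSF1R summed to 30.4 to 88.4 CPM in spheroids and 1.41 to 22.5 CPM in monolayers, with LYZ at 0 in both 2 h spheroid libraries and in the monolayers of 3 of the 4 times. Their part in the culture differences was not tested. The natural killer and T cell markers summed to 19.3 to 59.3 CPM in spheroids and, apart from replicate 1 before NEE, to 17 to 25.7 CPM in monolayers.

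Of the genes listed for branched-chain amino acid breakdown, 13 of 22 tested were higher in spheroids. The list is not limited to steps after the transaminases, since it also holds regulators and a carrier (BCKDK, PPM1K and SLC25A44). BCKDK was among the 13 (log2 fold change 0.54 ± 0.15, edgeR adjusted p = 0.0193). The list of branched-chain amino acid breakdown held 23 genes other than the BCATs, 22 of them tested, and over the 4 times 0 were lower, so that the counts were 13 and 0, against 10% and 9.84% of all genes. The median log2 fold change of the list was 0.47, and that of all genes tested was −0.02. ALDH6A1, the methylmalonate semialdehyde dehydrogenase of valine breakdown, averaged 97 ± 14.8 CPM in spheroids and 33.7 ± 12.5 CPM in monolayers (SD, n = 8 each, log2 fold change 1.56 ± 0.17, edgeR adjusted p = 5.49e-05). HIBADH, the step before it, averaged 177 ± 18.6 CPM in spheroids and 96.6 ± 16.8 CPM in monolayers (log2 fold change 0.90 ± 0.11). MCCC1, a subunit of methylcrotonyl-CoA carboxylase in leucine breakdown, had a log2 fold change of 1.01 ± 0.15 (edgeR adjusted p = 0.000379). In each of these 3 genes no spheroid library was as low as a monolayer library. Before NEE alone 4 of the 22 genes were higher in spheroids and 0 lower, with HIBADH at 183 ± 0.647 CPM in spheroids and 79.5 ± 0.113 CPM in monolayers (SD, n = 2 each, log2 fold change 1.22 ± 0.21, edgeR adjusted p = 0.0188).

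Of 33 other amino acid transporters, 24 were tested, and 5 were higher and 3 lower in spheroids over the 4 times, with a median log2 fold change of 0.02, where 10% of all genes were higher and 9.84% lower. SLC7A2, a second carrier of cationic amino acids, averaged 41.7 ± 14.9 CPM in spheroids and 10 ± 3.71 CPM in monolayers (SD, n = 8 each, log2 fold change 2.07 ± 0.26, edgeR adjusted p = 0.000161), while SLC7A1 was lower. SLC7A7, which joins SLC3A2 to exchange cationic for neutral amino acids, averaged 20.2 ± 9.43 CPM in spheroids and 4.14 ± 1.81 CPM in monolayers (log2 fold change 2.30 ± 0.35, edgeR adjusted p = 0.000517). SLC36A1, a proton-coupled carrier of small amino acids, and SLC6A9, a glycine transporter, were lower, with log2 fold changes of −1.07 ± 0.23 and −0.74 ± 0.15. Among 14 genes of the amino acid response around ATF4, 2 were higher, among them DDIT4, and 3 lower (PSAT1, PHGDH and SHMT2), beside the same 10% and 9.84% of all genes. PSAT1 and PHGDH make serine, and PSAT1 averaged 162 ± 19.4 CPM in spheroids and 514 ± 141 CPM in monolayers (SD, n = 8 each, log2 fold change −1.66 ± 0.17, edgeR adjusted p = 4.5e-05).

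The time course asked whether the carriers change after NEE. None of the 10 genes passed the test at any later time against before NEE in either culture (edgeR adjusted p = 1 throughout). Of all genes 0% were called right after NEE in monolayers, 0.00561% at 2 h and 0% at 24 h, and in spheroids 0%, 0.0112% and 0%. At an unadjusted p under 0.05, SLC7A5 was the one gene of the 10 at 2 h in each culture, where 604 of the 17822 genes in spheroids and 605 in monolayers were, and none was at the other times. DESeq2 called none of the 10 in these 6 comparisons. In spheroids the largest positive value was that of BCAT2 right after NEE (log2 fold change 0.22 ± 0.22), SLC7A5 at 2 h (0.72 ± 0.25) and SLC38A2 at 24 h (0.22 ± 0.39). The most negative was that of SLC6A14 at each time, at −0.63 ± 1.11 right after NEE, −0.85 ± 1.11 at 2 h and −1.51 ± 1.13 at 24 h. In monolayers, leaving aside SLC6A14 with its 16 counts, the largest positive values were those of BCAT2 right after NEE (0.30 ± 0.22), SLC38A2 at 2 h (0.65 ± 0.39) and BCAT2 at 24 h (0.46 ± 0.22). The most negative there was BCAT1 each time, at −0.56 ± 0.81, −0.85 ± 0.81 and −0.88 ± 0.81. BCAT1 before NEE averaged 114 ± 111 CPM over the library that stood apart, at 192.5 CPM, and the other, at 35.6 CPM.

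SLC7A5 was highest at 2 h in both cultures. In spheroids it stood at 340 and 376 CPM before NEE, 371 and 256 CPM right after, 678 and 505 CPM at 2 h, and 248 and 313 CPM at 24 h. In monolayers it stood at 394 and 389 CPM before NEE, 534 and 382 CPM right after, 685 and 534 CPM at 2 h, and 482 and 428 CPM at 24 h. Each 2 h library was above the library of the same culture and replicate number at every other time, in 12 of 12 pairs, by 1.25-fold to 2.73-fold. The 12 pairs reuse the 4 libraries at 2 h and are not independent. Against the libraries before and right after NEE over both cultures, the 4 libraries at 2 h averaged 600 ± 94.5 CPM and the 8 earlier ones 380 ± 76.5 CPM (SD), which gave a log2 fold change of 0.67 ± 0.15 and missed the threshold (edgeR adjusted p = 0.241). DESeq2 called it (adjusted p = 0.0362), and so did edgeR with no filter on low counts (adjusted p = 0.0361). By group mean, 2 h in monolayers (609 ± 107 CPM) and 2 h in spheroids (591 ± 123 CPM) led the 9 groups and overlapped each other, and NEE-sampled RNA (234 ± 57 CPM) came last, overlapping spheroids at 24 h (281 ± 45.8 CPM). In the comparison with the earlier libraries 0.0729% of all genes were called and 0 of the 10, with SLC7A5 and SLC38A2 the 2 at an unadjusted p under 0.05, as were 875 of the 17822 genes. Leaving aside SLC6A14, the most negative value there was −0.69 ± 0.52 for BCAT1.

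SLC38A2, which is known to be induced when amino acids run short, had a similar course. In spheroids it stood at 460 and 327 CPM before NEE, 436 and 365 CPM right after, 709 and 521 CPM at 2 h, and 312 and 605 CPM at 24 h. In monolayers it stood at 695 and 272 CPM before NEE, 432 and 313 CPM right after, 745 and 774 CPM at 2 h, and 370 and 335 CPM at 24 h. The 2 h libraries were above their same-number libraries in 11 of 12 pairs, which again reuse the 2 h libraries, the exception being spheroid replicate 2 at 24 h. The 695 CPM before NEE came from the monolayer library that stood apart, and the other library of that group had 272 CPM. Its log2 fold change at 2 h against the earlier libraries was 0.73 ± 0.23 (SE, edgeR adjusted p = 0.723), which passed only with no filter on low counts (adjusted p = 0.00886).

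The ratio of SLC38A1 to SLC38A2 counts within a library does not depend on library scaling. At 2 h it was 0.48 and 0.551 in spheroids and 0.679 and 0.496 in monolayers. Before and right after NEE it was 0.754 to 0.789 in spheroids and 0.926 to 1.16 in monolayers, above each 2 h value. At 24 h it was 0.722 and 0.463 in spheroids and 0.916 and 1.02 in monolayers, so that one spheroid library was above all 4 values at 2 h and the other below them. The SLC7A5 to SLC3A2 ratio averaged 0.379 ± 0.0509 in the 4 lysates at 2 h and 0.289 ± 0.0412 in the 8 lysates before and right after NEE (SD).

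**Figure D3:**
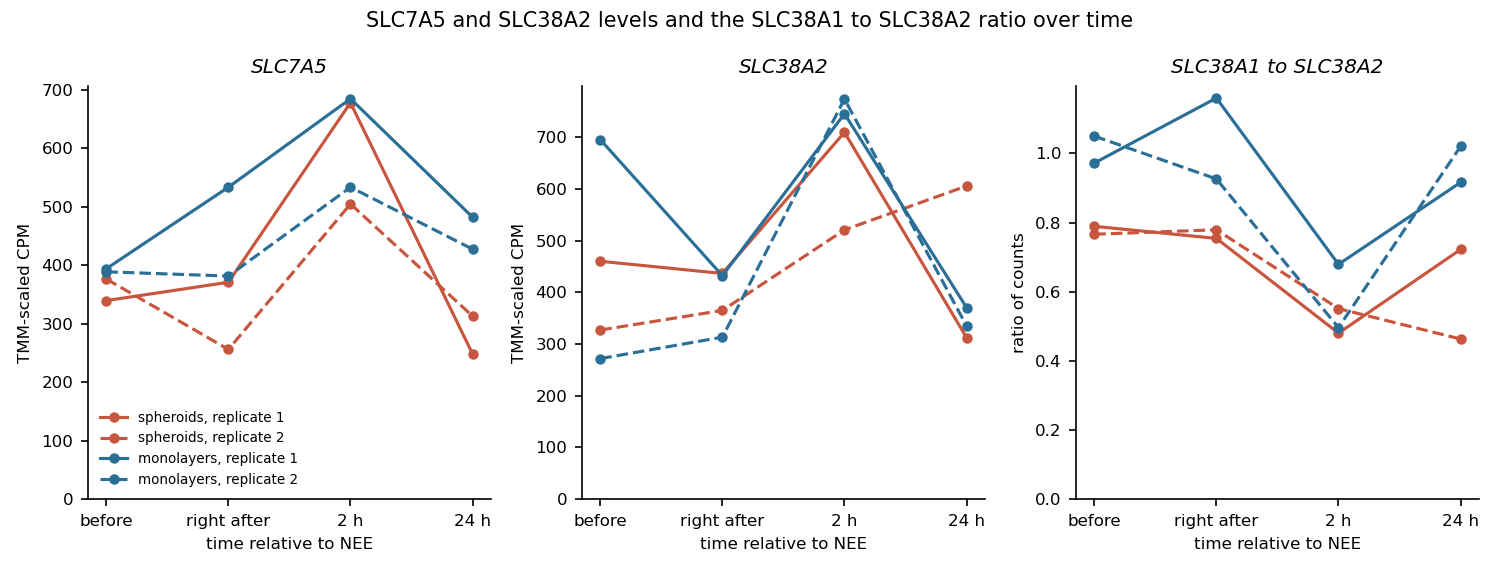
TMM-scaled CPM of SLC7A5 and SLC38A2, and the within-library ratio of SLC38A1 to SLC38A2 counts (vertical axes from 0), at the 4 times for spheroids and monolayers, with 1 line per replicate number. SLC7A5 peaks at 2 h in all 4 lines, SLC38A2 in 3 of 4, and the ratio is lowest at 2 h in 3 of 4.

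Between 2 h and 24 h none of the 10 genes passed the test, against 0.0561% of all genes. SLC7A5 averaged 368 ± 106 CPM at 24 h and 600 ± 94.5 CPM at 2 h (SD, n = 4 each) without overlap, with log2 fold change −0.74 ± 0.18 (SE; edgeR adjusted p = 0.409). SLC38A2 averaged 406 ± 135 CPM at 24 h and 687 ± 114 CPM at 2 h (log2 fold change −0.75 ± 0.28, edgeR adjusted p = 1), with overlap through spheroid replicate 2. The other genes apart from SLC6A14 lay between −0.60 ± 0.37 (SLC7A1) and 0.18 ± 0.29 (SLC1A4). SLC6A14 held 14 counts in 1 monolayer library at 24 h and none at 2 h, while in spheroids its means were 2.74 CPM at 24 h and 4.31 CPM at 2 h. None of the 3 other lists had a gene called at a later time against before NEE or between 2 h and 24 h.

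The comparison of NEE-sampled RNA with monolayer lysates asked how far RNA drawn from living monolayers resembles the lysate in these genes. Against the 6 monolayer lysates taken after NEE, 7 of the 9 genes tested were lower in NEE-sampled RNA and BCAT2 was higher, in a comparison that called 45.8% of all genes, 20.8% higher and 25% lower. Against the 2 lysates before NEE the counts were the same, with 7 lower and 1 higher, where 38.0% of all genes were called, 15.6% higher and 22.5% lower. SLC1A4 was the gene tested that did not pass in either, and SLC6A14 held no count in NEE-sampled RNA, where 3 counts over the 3 libraries are 0.0783 CPM, and was not tested. The median log2 fold change of the 9 genes was −2.09 against lysates after NEE, and that of all genes tested was −0.21. The NEE-sampled libraries are technical replicates, so their spread is technical, and they were purified with another kit than the lysates, which cannot be told apart from the sampling.

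SLC3A2 had 210, 219 and 294 CPM in NEE-sampled RNA, against 1369 to 1801 CPM with a median of 1601 in the monolayers after NEE. Its log2 fold change of −2.77 ± 0.19 was the most negative of the 9 (SE, edgeR adjusted p = 1.99e-06). SLC38A2 had 114, 57.6 and 65.4 CPM in NEE-sampled RNA, against 313 to 774 CPM in the lysates (log2 fold change −2.59 ± 0.33, edgeR adjusted p = 6.8e-05). SLC38A1 had 125, 94.9 and 61.6 CPM, against 290.0 to 506 CPM (log2 fold change −2.09 ± 0.33, edgeR adjusted p = 0.000278). In these 3 genes no NEE-sampled library came within the range of the lysates.

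SLC7A1 had 11.3, 11.8 and 4.75 CPM in NEE-sampled RNA, against 41.1 to 73.3 CPM in the lysates after NEE (log2 fold change −2.62 ± 0.34, edgeR adjusted p = 8.03e-05). SLC1A5 had 186, 147 and 163 CPM, against 247 to 554 CPM (log2 fold change −1.43 ± 0.24, edgeR adjusted p = 0.0005). SLC7A5 had 299, 191 and 213 CPM, against 382 to 685 CPM, and its log2 fold change of −1.14 ± 0.20 stood beside −2.77 ± 0.19 for its partner SLC3A2 (SE, edgeR adjusted p = 0.000607 for SLC7A5), a difference between the genes that was not tested. Against the 2 lysates before NEE, at 394 and 389 CPM, the call of SLC7A5 was lost in 6 of 12 alternatives (log2 fold change −0.75 ± 0.24, edgeR adjusted p = 0.0282, and 0.0527 to 0.186 where lost). SLC1A4 had 21.2, 5.83 and 10.9 CPM in NEE-sampled RNA, against 7.33 to 14 CPM in the lysates after NEE, and spread over a wider range than they did (log2 fold change 0.09 ± 0.39, edgeR adjusted p = 0.877).

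**Figure D4:**
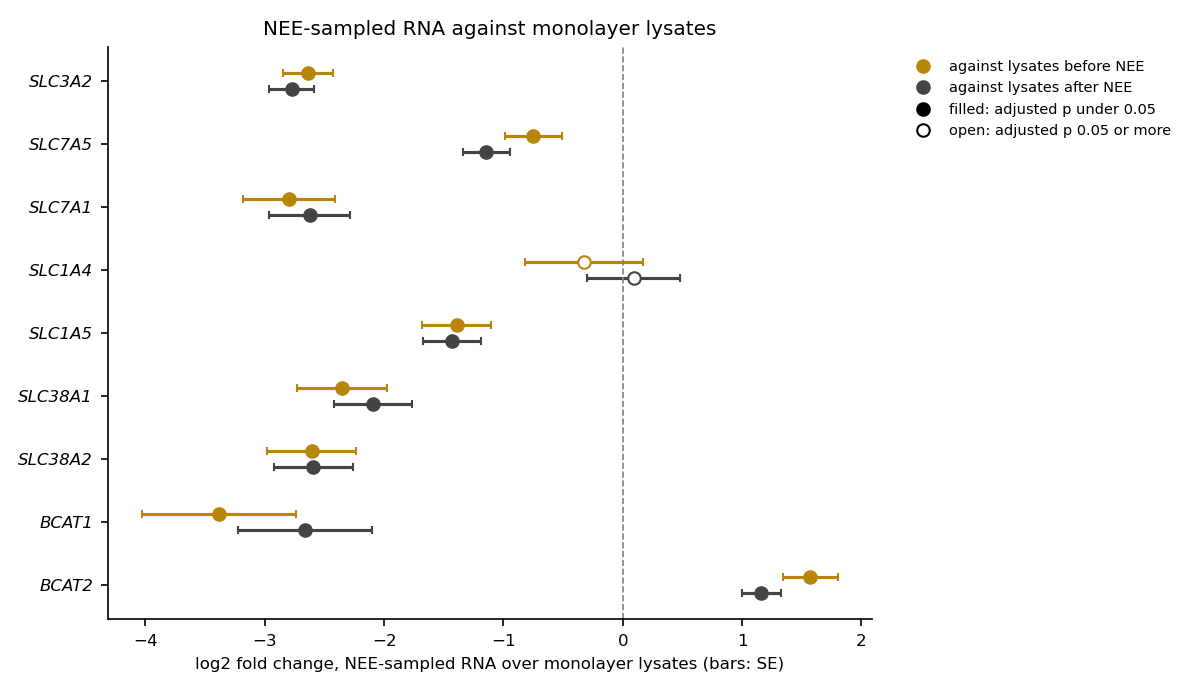
Log2 fold change of NEE-sampled RNA over monolayer lysates (horizontal axis, bars for SE) for the 9 genes tested, against the 2 lysates before NEE and the 6 after it, with filled symbols for an adjusted p under 0.05. BCAT2 lies to the right of 0 in both comparisons, SLC1A4 near 0 and the other 7 to the left.

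The transaminases parted in NEE-sampled RNA as they did in spheroids. BCAT1 had 8.55, 10.1 and 14 CPM in NEE-sampled RNA, against 37.6 to 114 CPM in the monolayers after NEE with a median of 63.7 (log2 fold change −2.66 ± 0.56, edgeR adjusted p = 0.00216). BCAT2 had 231, 226 and 238 CPM, against 93.8 to 116 CPM with a median of 98.6 (log2 fold change 1.16 ± 0.16, edgeR adjusted p = 0.000137). BCAT2 in NEE-sampled RNA was above all 16 lysates, the highest of which was at 162 CPM. Without the TMM factor, which lifts the NEE-sampled libraries, its mean there was 192 CPM. With the 3 technical replicates summed into 1 library the BCAT1 call was lost against the lysates after NEE (edgeR adjusted p = 0.0815) and before NEE (0.052), and the other 7 calls against the lysates after NEE were kept. Against the lysates before NEE the calls of SLC1A5 and SLC7A5 were lost as well (edgeR adjusted p = 0.0634 and 0.186). Myeloid markers summed to 13.4 to 31.2 CPM in NEE-sampled RNA with LYZ and CSF1R at 0, and the natural killer and T cell markers to 0.949 to 3.08 CPM.

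Against the 2 monolayer lysates before NEE, SLC3A2 had a log2 fold change of −2.64 ± 0.21, SLC7A1 one of −2.80 ± 0.39 and SLC1A5 one of −1.39 ± 0.29 (edgeR adjusted p = 1.81e-05, 0.00025 and 0.00275). BCAT2 was higher by 1.57 ± 0.23 on the log2 scale (edgeR adjusted p = 0.000354). BCAT1, SLC38A1 and SLC38A2 were lower, at −3.38 ± 0.64, −2.35 ± 0.38 and −2.61 ± 0.37 (edgeR adjusted p = 0.0017, 0.000612 and 0.000309). Without the monolayer library before NEE that stood apart these 3 values were −1.76, −1.64 and −1.82, and each call was kept.

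Within-library ratios do not depend on the scaling of the libraries. The BCAT1 to BCAT2 ratio was 0.037 to 0.0591 in NEE-sampled RNA, against 0.401 to 2.92 in the 8 monolayer lysates. The SLC7A5 to SLC3A2 ratio was 0.723 to 1.42 in NEE-sampled RNA, against 0.231 to 0.38 in monolayer lysates. On the scale per kilobase, SLC3A2 made up 21.2 ± 4.52% of the summed level of the 10 genes in NEE-sampled RNA (SD, n = 3) and 44.5 ± 5.36% in monolayers (SD, n = 8). BCAT2 made up 23.1 ± 2.23% in NEE-sampled RNA and 3.06 ± 0.537% in monolayers. The summed level itself was 222 CPM per kb in NEE-sampled RNA and 688 in monolayers.

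**Figure D5:**
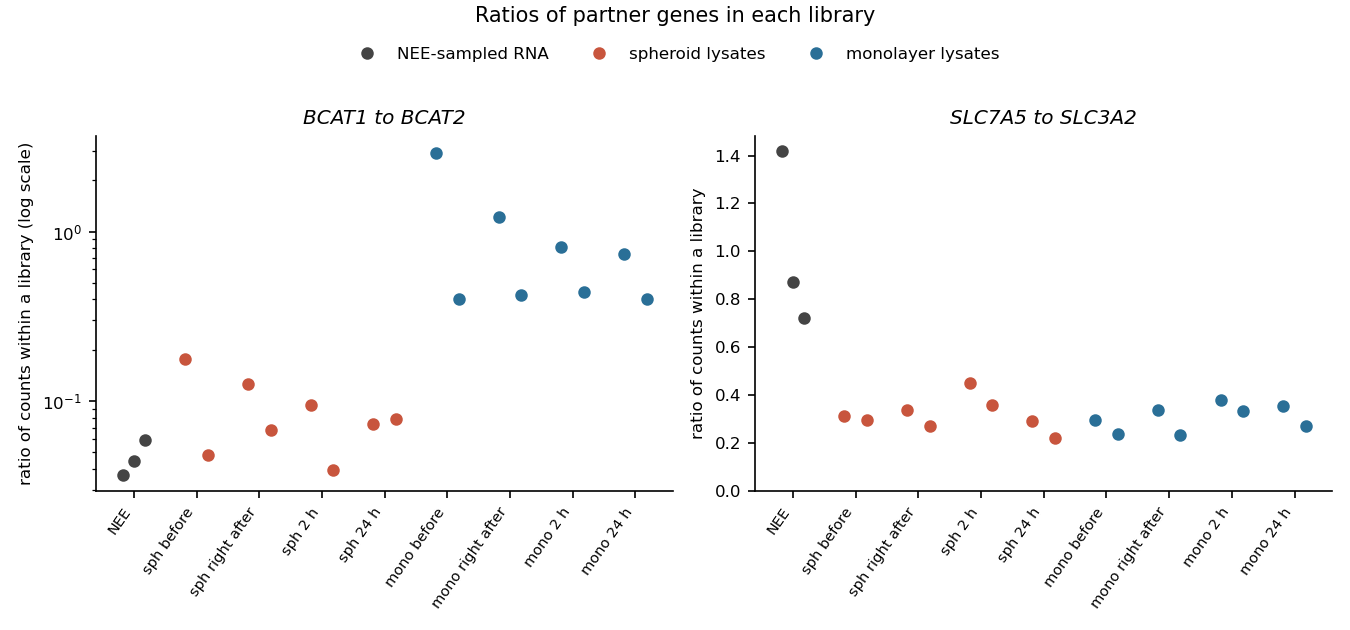
Ratio of BCAT1 to BCAT2 counts (left, log axis) and of SLC7A5 to SLC3A2 counts (right, from 0) within each library, for NEE-sampled RNA, spheroids (sph) and monolayers (mono). The BCAT ratio is at 0.178 or below in NEE-sampled RNA and spheroids and at 0.401 or above in monolayers, and the SLC7A5 to SLC3A2 ratio is at 0.723 or above in NEE-sampled RNA alone.

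Other carriers were mostly lower in NEE-sampled RNA. Of 23 other transporters tested against the lysates after NEE, 12 were lower and 1 higher, with a median log2 fold change of −1.97, where 25% of all genes were lower and 20.8% higher. The one higher was SLC7A7, at 76.1 ± 17.8 CPM in NEE-sampled RNA and 3.81 ± 1.1 CPM in lysates (SD, n = 3 and 6, log2 fold change 4.31 ± 0.35, edgeR adjusted p = 4.28e-06). SLC38A7, a lysosomal glutamine carrier, averaged 12.3 ± 4.91 CPM in NEE-sampled RNA and 89.3 ± 19.1 CPM in lysates (log2 fold change −2.90 ± 0.36). In the list of branched-chain amino acid breakdown 6 of 22 genes were higher and 8 lower, where 20.8% and 25% of all genes were. ECHS1, an enoyl-CoA hydratase of mitochondria, averaged 902 ± 66.7 CPM in NEE-sampled RNA and 263 ± 54.9 CPM in lysates (log2 fold change 1.74 ± 0.24), and HSD17B10 averaged 349 ± 75.6 and 67.2 ± 23.3 CPM (log2 fold change 2.33 ± 0.36). DLD, the shared dihydrolipoamide dehydrogenase subunit, was lower, at 113 ± 8.7 CPM in NEE-sampled RNA and 302 ± 19.7 CPM in lysates (log2 fold change −1.46 ± 0.16). Of the 14 amino acid response genes, 3 were higher and 3 lower, beside the same shares of all genes, with STC2, a secreted glycoprotein induced under stress, at 9.66 ± 1.16 CPM in NEE-sampled RNA and 78.8 ± 43.3 CPM in lysates (log2 fold change −2.96 ± 0.43, edgeR adjusted p = 0.00019). Against the lysates before NEE the counts were 10 lower and 1 higher for the transporters, 5 lower and 6 higher for breakdown, and 3 lower and 2 higher for the response list. Both comparisons share the NEE-sampled libraries. With the technical replicates summed into 1 library, read for these lists after seeing the data, the counts against the lysates after NEE were 9 lower and 1 higher of 27 transporters, 3 lower and 5 higher of 22 for breakdown, and 2 lower and 0 higher of 14 for the response list. In that fit 12% of all genes were lower and 12.4% higher, and SLC7A7, SLC38A7, ECHS1, HSD17B10, DLD and STC2 were still called (edgeR adjusted p = 0.00019 to 0.017).

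Across the 16 lysates, genes with levels most like those of each member were listed by Pearson's r of log2(CPM + 1) among 9646 genes with a mean of at least 5 CPM, as a description. These libraries share the culture forms, times and replicate numbers. SLC6A14 was most like RPN2 (r = 0.962) and GRN (0.956), and BCAT1 most like FASTKD2 (0.961) and DPP9 (0.955). BCAT2 was most like GAPDH (0.941) and TMTC2 (0.933). SLC38A2 was most like NR4A2 (0.931) and RND3 (0.927), SLC7A5 most like MAP3K14 (0.904) and PPTC7 (0.881), and its partner SLC3A2 most like GNL3 (0.918) and GTPBP4 (0.892). For SLC7A1 the closest were KPNA6 (0.931) and EGFR (0.925), for SLC38A1 XPOT (0.941) and UBQLN1 (0.939), and for SLC1A5 WDR5 (0.901) and NSUN2 (0.893). SLC1A4 had the weakest likeness, with UBL4A at 0.758 and PLCD1 at 0.755. Among the members themselves r was 0.833 for SLC7A1 and BCAT1, 0.815 for SLC38A1 and BCAT1, 0.762 for SLC3A2 and SLC7A5, and −0.773 for BCAT1 and BCAT2 (n = 16 each).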

How the data were processed

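Raw gene counts deposited by the authors were used for 19 libraries. Per the submitters' processing notes, the tools were FastQC, Trimmomatic, HISAT2 and featureCounts, and the genome was GRCh38. Settings, annotation release and strand setting: not given in the sources used here. Per the labels' protocols, lysate RNA was isolated with a total RNA kit, and the NEE-sampled RNA with a kit for clean-up. Levels are CPM scaled by TMM factors of 0.971 to 1.1 in lysates and 0.797 to 0.862 in NEE-sampled RNA. Gene positions and exon lengths come from GENCODE 29, which placed 58207 of 62700 genes.

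Tests were edgeR 4.0.16 quasi-likelihood fits in R 4.3.3 after filterByExpr, with Benjamini-Hochberg adjustment over all genes tested and a threshold of 0.05. The lysate fit held 17822 genes, 16 libraries and 8 residual degrees of freedom. The NEE fit held 17067 genes, 3 NEE-sampled and 8 monolayer libraries, and 6 residual degrees of freedom. The lysate fit was checked on simulated data for monolayers at 2 h, and the other comparisons were not simulated. The simulated counts had a dispersion of 0.05, a smaller spread than in the data, where the square root of the common dispersion was 0.518. The check therefore does not give the power or the rate of false calls in these data. Depth was 13626934 to 24571083 counts. The replicate numbers were taken from the labels' batch field. Over 28 pairs of groups, deviations of same-numbered libraries had correlations of −0.277 to 0.501, 19 of them above 0.1. No 2 libraries of a group agreed within sampling noise. The p-values of the lysate fit measure the spread between these samples. In the NEE fit the spread of the 3 technical replicates is pooled with that between monolayer lysates. Its p-values therefore do not measure the spread between separate NEE samplings.

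The members, lists and tests were chosen with earlier results of these data known. In each comparison the members called get full values, and where none was called the largest and the most negative do. SLC6A14 held 16 counts in monolayers, and fitted folds against so few depend on the prior count, so counts stand in their place. Up to 4 called genes by smallest p are named from each other list; some items are not reported here. Alternatives were DESeq2 1.42.0, other scalings and filters, a replicate block, summed technical replicates, all libraries in 1 fit, and leaving out each library.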

Additional observations from a re-analysis of the deposited data

How the results depend on the processing

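No called value of the 10 genes changed sign under the alternatives run. Counts of the 10 genes called moved as follows. For 2 h against before and right after NEE, 0 became 2 with no filter on low counts and 1 with DESeq2. For spheroids against monolayers before NEE, 1 became 2 with no filter, 2 with the replicate number as a block, 3 with DESeq2 and 0 with all 19 libraries in 1 fit, and 0 to 3 when a library was left out. Over the 4 times 5 became 7 with the replicate block, 6 with no filter, 6 with a filter of 5 CPM and 3 to 6 without a library. For NEE-sampled RNA against lysates before NEE, 8 became 5 with the technical replicates summed, which leaves 1 library on that side, 7 with upper-quartile scaling and 7 to 8 without a library; against lysates after NEE 8 became 7 with them summed. The cause of these changes in count was not tested. Of 2042 fitted values under alternatives, 31 lost a call, 17 gained one and 162 uncalled ones changed sign.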
